A study of Homo sapiens with 40 samples.

Results

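The genes described here are 10 members of the machinery that takes a cell from G1 into S phase, read in single T47D cells: the D cyclins CCND1 and CCND3, their kinases CDK4 and CDK6, the retinoblastoma gene RB1, the inhibitors CDKN1A, CDKN1B and CDKN2A, and the downstream genes CCNE1 and E2F1. They were taken by name, through their Ensembl identifiers, from the 60279 genes of each count table, and the rule that lists them uses no measured value. T47D is a human breast cancer cell line that carries estrogen and progesterone receptors. The deposited data hold 40 single cells: 13 processed by Genome & transcriptome sequencing (G&T), 13 by the SMART-seq HT kit (Takara) and 14 by the NEBNext Single Cell/Low Input kit (NEB), all untreated, from 1 cell line at passage 10 and sorted as live cells positive for EpCAM and integrin α6. Cells under the study's thresholds were left out, which were G&T C2 and F1, Takara C2 and F1, and NEB B2, F1 and F2 (named by well), so 33 cells remained, 11 per protocol. SMART-Seq3 cells were not analysed here.

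In G1, growth signals raise D cyclins, which bind CDK4 or CDK6 and start the phosphorylation of the retinoblastoma protein. Phosphorylated retinoblastoma protein releases E2F transcription factors, which switch on S phase genes, cyclin E and E2F1 itself, and cyclin E with CDK2 then completes the step. INK4 proteins such as the p16 product of CDKN2A block CDK4 and CDK6, while CDKN1A (p21) and CDKN1B (p27) bind cyclin-CDK complexes more widely. Estrogen receptor signalling acts on CCND1 in luminal breast cancer, and drugs against CDK4 and CDK6 are used in that disease.

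The 250 bases before the RefSeq starts of E2F1 and CCNE1 are shown because all but 1 of the cells with a CCNE1 read also had E2F1 reads, as described further on. E2F1 was read in 8 of 11 G&T and 7 of 11 Takara cells, and a link between the genes was not tested. Capitals mark matches to 4 spellings of the E2F motif, TTTCCCGC, TTTGGCGC, TTTCGCGC and TTTGCCGC, searched on both strands. The sequences come from RefSeq (GRCh38.p14), written 5′ to 3′ on the strand of the gene, for chr20:33686386-33686635 (minus strand) and chr19:29811741-29811990 (plus strand).
E2F1: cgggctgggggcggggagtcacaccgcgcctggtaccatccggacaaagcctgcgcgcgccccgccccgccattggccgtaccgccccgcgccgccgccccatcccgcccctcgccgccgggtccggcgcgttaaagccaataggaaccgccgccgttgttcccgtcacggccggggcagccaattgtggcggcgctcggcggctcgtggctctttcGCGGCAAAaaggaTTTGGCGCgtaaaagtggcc
CCNE1: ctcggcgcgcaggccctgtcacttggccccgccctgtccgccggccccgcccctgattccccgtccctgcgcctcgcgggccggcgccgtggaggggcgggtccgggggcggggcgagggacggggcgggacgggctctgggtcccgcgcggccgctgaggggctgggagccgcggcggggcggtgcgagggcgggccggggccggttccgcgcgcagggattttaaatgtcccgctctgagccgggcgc

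The E2F1 promoter held 2 matches, which begin at positions -33 (TTTGCCGC, on the opposite strand) and -20 (TTTGGCGC) counted from the start site, and they do not overlap each other. Promoters of 300 bases (250 before and 50 after the start) were at hand for 9 of the 10 genes, 13 promoters in all, and only that of E2F1 held one of these 4 spellings. Of all 35116 RefSeq promoters of that length, 3.31% held one. The only RB1 start at hand, 48476450, lies inside the gene as annotated (48303744 to 48599436). The stretch before the annotated start of RB1 was therefore not searched. The CCNE1 window holds none of these letters, which says nothing about binding of the factor there.

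The 33 cells had between 624772 and 1287911 reads on genes. By protocol the range was 658154 to 1166633 in G&T, 818512 to 1287911 in Takara and 624772 to 963816 in NEB. The 8 luminal markers EPCAM, KRT8, KRT18, KRT19, GATA3, FOXA1, ESR1 and PGR had reads in 10 or 11 of the 11 cells of every protocol. KRT5, KRT14, PTPRC and PECAM1 had no read in Takara or NEB and at most 12 reads in G&T. VIM, a mesenchymal marker, had 12 reads in 2 G&T cells, 25 in 4 Takara cells and 144 in 3 NEB cells (18.1 CPM pooled). Each protocol had 1 sequencing run, and the study's methods give NEB more amplification cycles, so protocol, run and amplification cannot be told apart. A protocol therefore counts as 1 sample, cells are not replicates of it, and no test was made between protocols. The level of a gene is given as CPM, its reads per 1000000 reads on all genes, per cell or pooled over the 11 cells, and 95% Poisson intervals of pooled levels cover counting error only, since reads without molecular identifiers are not independent molecules.

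The 2 D cyclins, CDK4, RB1 and CDKN2A had at least 1 read in every G&T cell and in every Takara cell, and none of the 10 genes had reads in every NEB cell. Over the 13064 genes with a mean pooled level of at least 1 CPM, 42.7% were read in every G&T cell, 50.6% in every Takara cell and 10.6% in every NEB cell, and all 10 genes passed that filter. A G&T cell had reads on 7.82 ± 1.40 of the 10 genes (mean ± SD, n = 11 cells, 6 to 10 genes), a Takara cell on 7.55 ± 0.93 (6 to 9) and a NEB cell on 3.27 ± 1.85 (0 to 5). No G&T or Takara cell had as few of these genes as the richest NEB cells, and the same held over all genes, of which a cell had 9541 to 12794 in G&T, 10624 to 11855 in Takara and 4416 to 6719 in NEB. With every cell thinned to 624772 reads the expected means were 7.77, 7.46 and 3.21. The NEB cell E1 had no read on any of the 10 genes, and it had the highest summed mitosis list of the 11 kept NEB cells, 30599 CPM. Cell D1, the next highest with 25866 CPM, had reads on 3 of the genes, and B1, the lowest with 112 CPM, on 1.

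**Figure D1:**
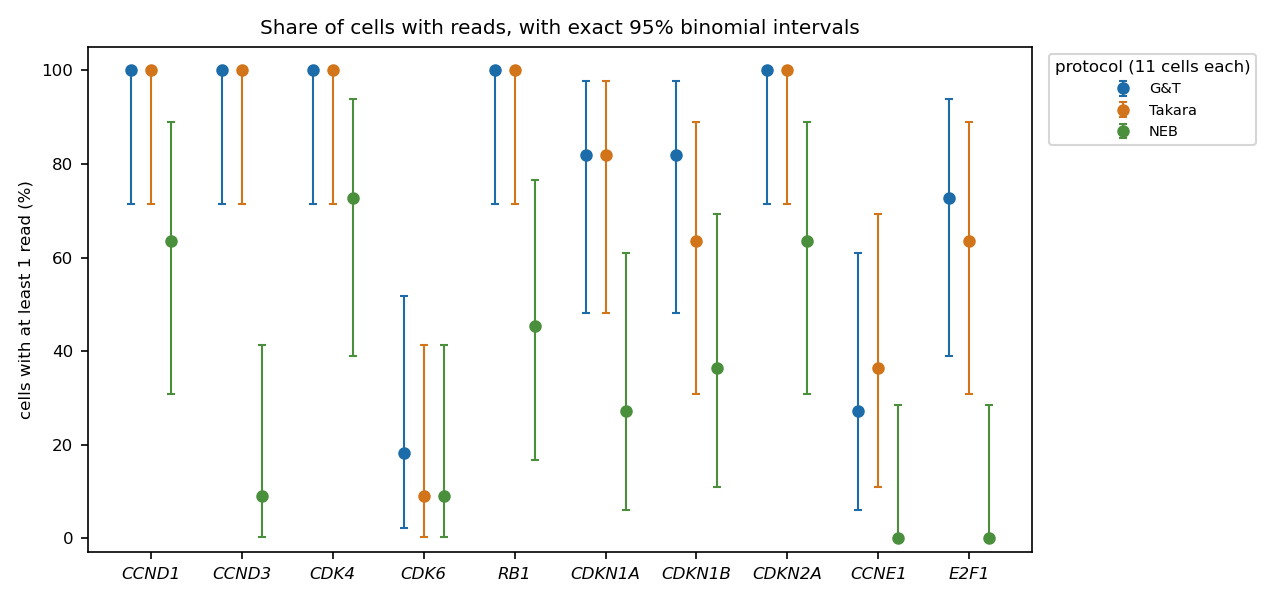
Percent of the 11 kept cells of each protocol with at least 1 read (y axis) for each of the 10 genes (x axis), with exact 95% binomial intervals that cover counting error only. CCND3 was read in 11 G&T, 11 Takara and 1 NEB cell, and CCNE1 and E2F1 in no NEB cell.

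The D cyclins come first in the pathway, and they differed in how they were recovered by NEB. CCND1 (ENSG00000110092, chromosome 11, 69641156 to 69654474, plus strand) encodes cyclin D1. Its lowest, median and highest levels were 13.7, 155 and 389 CPM over the G&T cells, 34.5, 94.5 and 217 over the Takara cells, and 0, 27.7 and 417 over the NEB cells. The ranges overlapped, and the highest single value was in a NEB cell although 4 NEB cells had no CCND1 read. The pooled level was 187 CPM in G&T (179 to 196), 110 in Takara (104 to 116) and 71.1 in NEB (65.4 to 77.2). The NEB cell A1 gave 49.0% of the CCND1 reads of that protocol, and without it the log2 ratio of Takara over NEB (1 CPM added to each level) was 1.46 in place of 0.62 and that of G&T over NEB 2.22 in place of 1.39.

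CCND3 (ENSG00000112576, chromosome 6, 41934934 to 42050357, minus strand) encodes cyclin D3, which serves the same kinases. It ranged over 11.9, 67.4 and 228 CPM in G&T (lowest, median and highest) and over 55.1, 167 and 260 in Takara, while in NEB a single cell, E2, had 24 reads (31.6 CPM) and the other 10 had none. All Takara cells lay above all NEB cells. The mean was 101 ± 84.6 (G&T), 155 ± 68.1 (Takara) and 2.87 ± 9.53 CPM (NEB) (SD, n = 11 cells each). The pooled level was 96.3 (G&T), 158 (Takara) and 3.01 CPM (NEB) (1.93 to 4.48), which is 32.0-fold higher in G&T than in NEB (interval 21.4 to 50.2) and 52.5-fold higher in Takara than in NEB (35.1 to 82.1). Both gaps to NEB were larger than the larger SD over cells, while the gap between G&T and Takara was within it. Without cell E2, NEB had no CCND3 read.

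Which D cyclin stood higher within a cell varied. CCND1 was above CCND3 in CPM in 6 of 11 G&T cells, 4 of 11 Takara cells and all 7 NEB cells that had a D cyclin read. CPM does not adjust for length, and the annotated exons of CCND3 cover 5761 bases against 4761 for CCND1, while the longest transcript of CCND3 has 2394 bases against 4238. Every G&T and Takara cell had reads on both D cyclins and on CDK4. In NEB, 6 of 11 cells had a D cyclin together with CDK4, and 4 had no D cyclin read.

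The kinases split sharply, with CDK4 in most cells and CDK6 in 4 of 33. CDK4 (ENSG00000135446, chromosome 12, 57747727 to 57756013, minus strand) ranged over 29.0, 77.4 and 177 CPM in G&T, 134, 226 and 347 in Takara, and 0, 32.8 and 119 in NEB (lowest, median and highest). Every Takara cell was above every NEB cell, while the ranges of G&T and Takara overlapped. The mean was 95.3 ± 47.8 (G&T), 232 ± 65.1 (Takara) and 40.9 ± 41.7 CPM (NEB) (SD, n = 11 cells each), and the gap of every pair of protocols exceeded the larger SD. Pooled CDK4 was 2.44-fold higher in Takara than in G&T (2.26 to 2.63) and 5.52-fold higher in Takara than in NEB (4.92 to 6.21). TSPAN31 on the opposite strand overlaps 44.2% of the annotated CDK4 exon bases, and there is a pseudogene named CDK4P1. LTO1 likewise overlaps 10.4% of the CCND1 exon bases, and 2 pseudogenes carry the name of CCND3. The strand setting of the counts is not given in the sources used here, so how reads of these overlaps were assigned is uncertain.

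CDK6 (ENSG00000105810, chromosome 7, 92604921 to 92836573, minus strand) encodes the other kinase partner of the D cyclins. It had 38 reads in G&T cell C1, 20 in G&T cell D1, 5 in Takara cell A2 and 5 in NEB cell A1, and no read in the other 29 kept cells. The pooled level was 6.11 CPM in G&T (4.64 to 7.89), 0.43 in Takara (0.14 to 1.00) and 0.63 in NEB (0.20 to 1.46). The G&T level rested on 2 cells, and without C1 its log2 ratio over Takara was 1.23 in place of 2.32 and over NEB 1.04 in place of 2.13. Among the members, CDK6 had the lowest pooled level in G&T and Takara. In NEB it was the lowest of the 8 genes with a read.

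**Figure D2:**
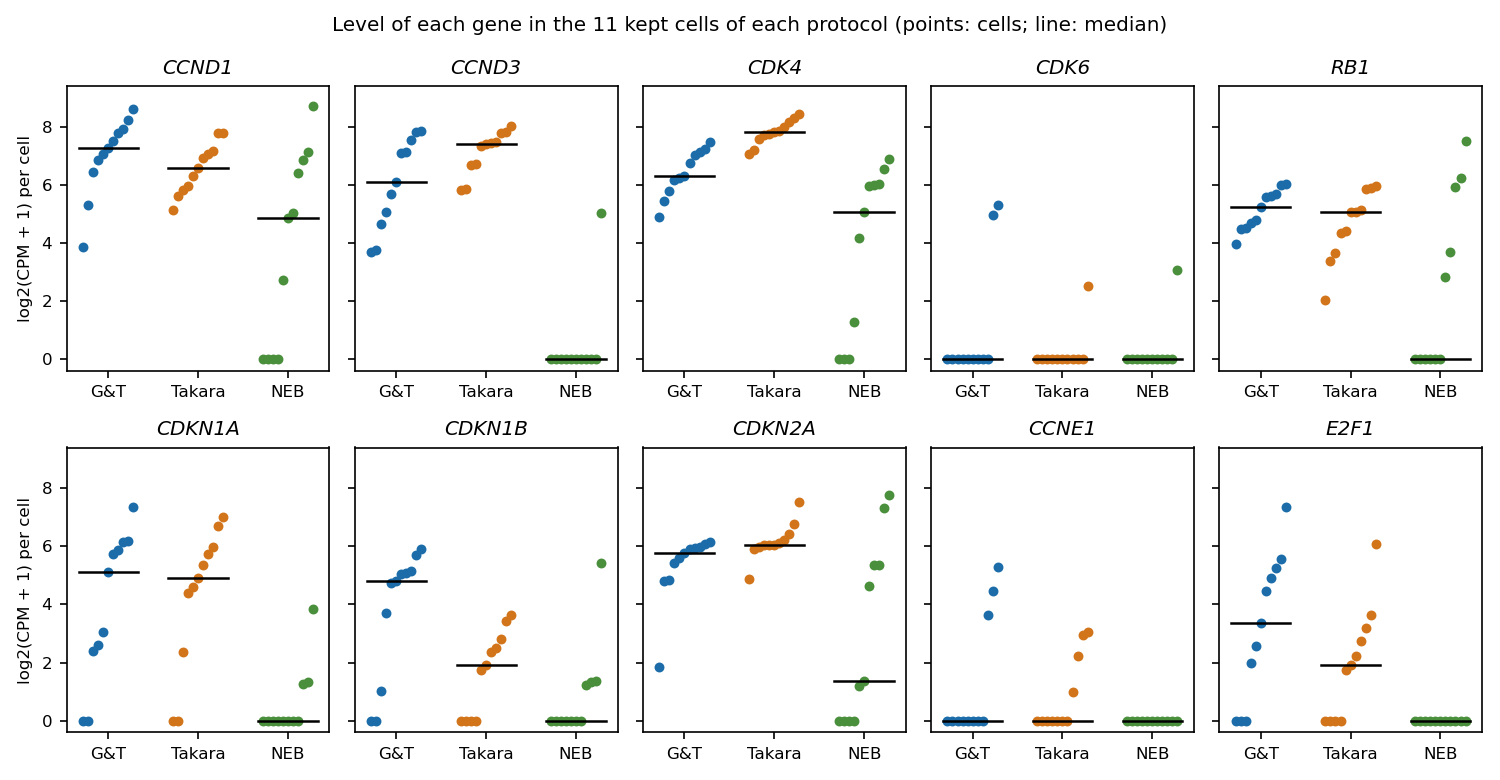
Level per cell as log2(CPM + 1) (y axis) for the 10 genes in the 11 kept cells of each protocol (x axis), with cells spread by value and a line at the median. CDK4 and CCND3 of Takara lie above all NEB cells, CDK6 lies at 0 in all but 4 cells, and CDKN1B is lower in Takara than in G&T.

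RB1 (ENSG00000139687, chromosome 13, 48303744 to 48599436, plus strand) encodes the substrate that the D cyclin kinases inactivate. Its lowest, median and highest levels were 14.6, 36.7 and 64.5 CPM in G&T, 3.10, 32.5 and 60.9 in Takara, and 0, 0 and 183 in NEB. The pooled levels lay close together at 37.4 CPM in G&T (33.6 to 41.5), 30.6 in Takara (27.5 to 33.9) and 33.2 in NEB (29.4 to 37.5). That level was spread over all 11 cells in G&T and Takara and over 5 cells in NEB, where cell A2 alone held 54.7% of the reads. The SD over cells was 17.6 (G&T), 20.4 (Takara) and 56.9 CPM (NEB). Without NEB cell A2 the log2 ratio of G&T over NEB was 1.12 in place of 0.16.

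The inhibitors each behaved differently. CDKN1A (ENSG00000124762, chromosome 6, 36676460 to 36687337, plus strand), which encodes p21, had a median of 33.8 CPM and a maximum of 164 in G&T, and 29.3 and 127 in Takara, with 2 cells at 0 in each. NEB had 9 reads in cell B1, 1 in D2 and 1 in H2. Pooled levels were 39.9 (G&T), 42.0 (Takara) and 1.38 CPM (NEB) (0.69 to 2.47), a fold over NEB of 28.9 for G&T (16.0 to 58.4) and 30.4 for Takara (16.9 to 61.4). The cells of all pairs of protocols overlapped, because each protocol had cells without a read. The gap to NEB stayed within the SD of 49.4 CPM in G&T and 41.9 CPM in Takara. Without cell B1, NEB kept 2 CDKN1A reads, and the log2 ratios over NEB were 5.00 for G&T and 5.08 for Takara in place of 4.10 and 4.18.

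CDKN1B (ENSG00000111276, chromosome 12, 12685498 to 12722369, plus strand) encodes p27, which holds cyclin E and CDK2 in check. Reads were found in 9 cells of G&T, 7 of Takara and 4 of NEB. The median and highest levels were 27.3 and 59.0 CPM in G&T, 2.81 and 11.4 in Takara, and 0 and 41.6 in NEB. Of the 9 G&T cells with reads, 8 were above every Takara cell. Pooled CDKN1B was 22.4 (G&T), 3.58 (Takara) and 4.51 CPM (NEB), 6.25-fold higher in G&T than in Takara (4.48 to 8.93). The means of 25.1 ± 20.1 CPM in G&T and 3.75 ± 3.99 in Takara (SD, n = 11 cells each) differed by slightly more than the larger SD. Cell A2 gave 91.7% of the NEB reads, and without it G&T over NEB had a log2 ratio of 4.05 in place of 2.09 and Takara over NEB one of 1.69 in place of -0.27.

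CDKN2A (ENSG00000147889, chromosome 9, 21967752 to 21995301, minus strand) encodes p16 and, from another first exon, ARF, and 14 annotated transcripts share 1 row of the tables, so the products cannot be told apart. CDKN2B-AS1 on the opposite strand overlaps 15.3% of its exon bases. The lowest, median and highest levels were 2.57, 53.9 and 70.6 CPM in G&T, 28.5, 65.7 and 182 in Takara, and 0, 1.60 and 214 in NEB. All G&T and Takara cells had reads, as did 7 NEB cells. Pooled levels were 44.7 CPM in G&T (40.6 to 49.2), 78.0 in Takara (73.0 to 83.2) and 43.3 in NEB (38.8 to 48.1), and no gap exceeded the larger SD. NEB cell H2 held 43.8% of the NEB reads, and the log2 ratio of Takara over NEB was 1.51 without it in place of 0.84. That ratio also passed 2-fold without NEB cell A1.

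CCNE1 and E2F1 lie downstream of the retinoblastoma protein, and neither had a read in the 11 NEB cells. For both, the 0 reads in NEB were given a set limit of 3 reads over the protocol, or 0.376 CPM pooled. The exact 95% Poisson upper limit was 0.463 CPM. For cells, 0 of 11 allows up to 28.5% with a read (exact 95% binomial bound). E2F1 (ENSG00000101412, chromosome 20, 33675477 to 33686385, minus strand) had reads in 8 G&T and 7 Takara cells, with a median and maximum of 9.41 and 161 CPM in G&T and 2.80 and 67.1 in Takara. Cell C1 held 58.1% of the G&T reads and cell B1 63.7% of the Takara reads. The pooled level was 28.6 CPM in G&T (25.3 to 32.2) and 8.71 in Takara (7.10 to 10.6), which is at least 76.1-fold higher in G&T and at least 23.1-fold higher in Takara than the NEB limit of 3 reads. With the counting error of both protocols the 95% lower limits were 61.5 and 18.5. Without G&T cell C1 or Takara cell B1 the folds over the NEB limit were at least 35.6 and at least 9.15.

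CCNE1 (ENSG00000105173, chromosome 19, 29811991 to 29824312, plus strand) encodes cyclin E1. It had 37 reads in G&T cell C1, 14 in D1 and 9 in G1, and in Takara 6 in A1, 7 in B1, 4 in E1 and 1 in B2. The pooled level was 6.32 CPM in G&T (4.82 to 8.13) and 1.54 in Takara (0.91 to 2.43), at least 16.8-fold and at least 4.08-fold higher than the NEB limit of 3 reads. With the counting error of both protocols the 95% lower limits were 13.2 and 2.99, and without C1 or B1 the folds over the NEB limit were at least 7.17 and at least 2.72. Cell C1 decided the difference between G&T and Takara for both genes. Without it the log2 ratio was 0.54 in place of 1.53 for CCNE1 and 0.57 in place of 1.61 for E2F1. Without Takara cell B1, E2F1 had a log2 ratio of 2.74 for G&T over Takara.

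**Figure D3:**
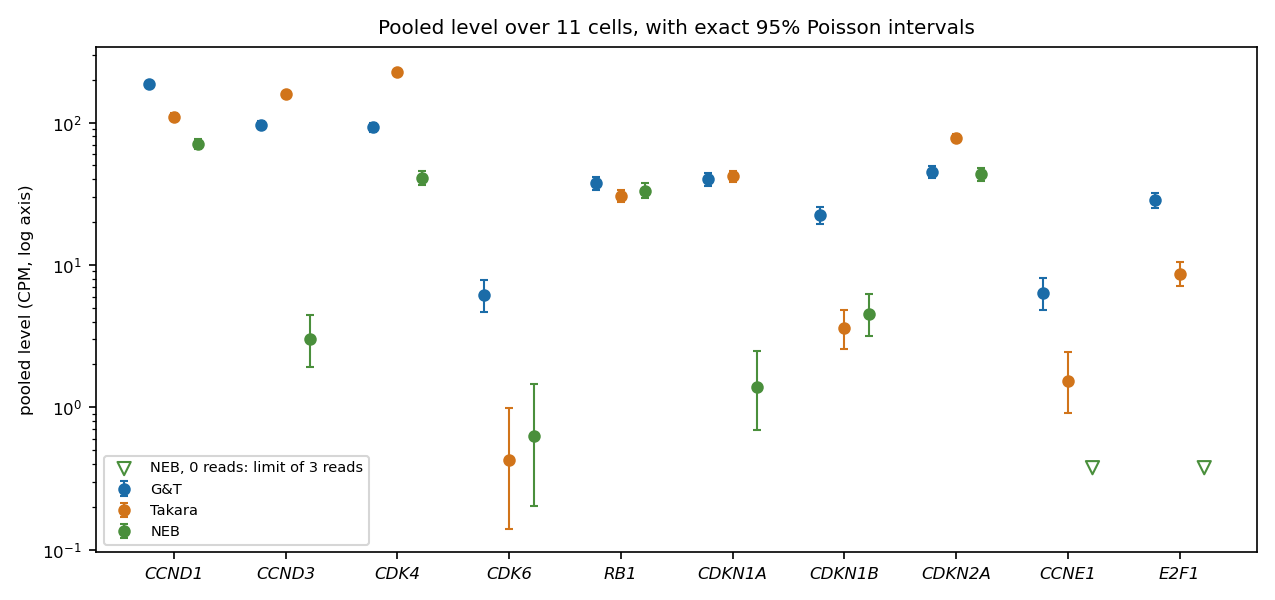
Pooled level in CPM over the 11 kept cells of each protocol (y axis, log scale) for the 10 genes (x axis), with exact 95% Poisson intervals that cover counting error only. Open triangles stand at the limit of 3 reads where NEB had 0. RB1 lies between 30.6 and 37.4 CPM in all 3 protocols, while CCND3 spans 3.01 to 158 CPM.

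Across genes, a difference of at least 2-fold in pooled level, with 1 CPM added before log2, was used as the call. The comparisons share protocols, so their counts are not independent of each other. G&T was higher than Takara for 4 of the 10 genes (CDK6, CDKN1B, CCNE1 and E2F1) and lower for CDK4, against 20.9% of all tested genes higher and 17.4% lower. G&T was higher than NEB for 8 genes, all but RB1 and CDKN2A, and lower for none, against 44.4% and 20.2%. Takara was higher than NEB for 5 genes (CCND3, CDK4, CDKN1A, CCNE1 and E2F1) and lower for none, against 41.8% and 23.1%. The median log2 ratio over the 10 genes was 0.52 for G&T over Takara, beside 0.03 over all tested genes. Against NEB it was 2.11 for G&T and 1.09 for Takara, beside 0.67 and 0.51. With CCNE1 and E2F1 at their bounds against NEB, those medians were 2.11 and 1.43. CDK4 in G&T over NEB had a log2 ratio of 1.16, and with median-of-ratios scaling it was 0.93 and under 2-fold. With the median over cells in place of pooled reads, CDK6 and CCNE1 were at 0 for G&T over both other protocols, while RB1 (5.24) and CDKN2A (4.40) passed 2-fold for G&T over NEB and CCND3 (-1.30) for G&T over Takara.

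Set beside the spread over cells, fewer genes stood apart. The gap in mean CPM exceeded the larger SD for CDK4 and CDKN1B between G&T and Takara, against 20.4% of tested genes. Between G&T and NEB it did so for CCND3, CDK4 and CDKN1B, against 21.6%, and between Takara and NEB for CCND3 and CDK4, against 30.0%. Cells did not overlap for CCND3 and CDK4 between Takara and NEB, against 10.4% of tested genes. No member was free of overlap between G&T and Takara, against 2.17%, or between G&T and NEB, against 4.91%.

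Levels were compared between genes per length, as CPM for each kilobase of annotated exons (RPKM). In Takara, CDK4 came first with 72.9 RPKM, followed by CCND3 (27.4), CCND1 (23.1), CDKN2A (20.1) and CDKN1A (14.02), then RB1 (4.75), E2F1 (3.24), CCNE1 (0.62), CDKN1B (0.39) and CDK6 (0.03). G&T put CCND1 (39.4) ahead of CDK4 (29.9), CCND3 (16.7), CDKN1A (13.3), CDKN2A (11.5) and E2F1 (10.6), with RB1 at 5.81, CCNE1 at 2.57, CDKN1B at 2.42 and CDK6 at 0.50. In NEB the order began with CCND1 (14.9), CDK4 (13.2), CDKN2A (11.1) and RB1 (5.17), and all others were at 0.52 RPKM or lower. Most neighbours in these orders did not differ by more than the larger SD over cells. The exceptions among 9 neighbouring pairs per protocol were CDK4 above CCND3 in Takara and CDKN1B above CDK6 in G&T, with none in NEB. Taking the longest transcript as the length raised CDKN2A to 42.5 RPKM in G&T, to 74.2 in Takara and to 41.1 in NEB, and put it above CCND1 in Takara and NEB. By that length CDK4 led in G&T (49.7, against 44.2 for CCND1) and in Takara (121), where CDKN2A was above CCND3 (66.0) and CCND3 above CCND1 (26.0). In NEB CDKN2A led, and CDK4 (21.9) was above CCND1 (16.8).

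The difference between Takara and NEB moved with the base composition of the transcripts. Over 12939 tested genes with an annotated transcript, the Spearman correlation of GC content with the log2 ratio was 0.58 for Takara over NEB and 0.57 for G&T over NEB, while G&T over Takara had -0.12. Over the 10 genes it was 0.83, 0.49 and -0.41, over 23 other G1/S genes it was 0.26, 0.36 and 0.00, and over the 33 genes together 0.49, 0.46 and -0.12. These correlations are across genes, which share the same libraries and are not independent replicates. The genes furthest above NEB in Takara were GC-rich, CCND3 with 59.97% GC and a log2 ratio of 5.31, CDKN1A with 57.3% and 4.18, and E2F1 with 61.6% and 3.28. RB1 with 37.1% GC and CDK6 with 39.7% had ratios of -0.12 and -0.19. CDKN2A departed from that order with 58.2% GC and a ratio of 0.84. The 1760 tested genes of at least 60% GC had a median of 2.61, and the 2283 genes under 40% had -0.99. The part of GC content in the results of single genes was not tested.

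**Figure D4:**
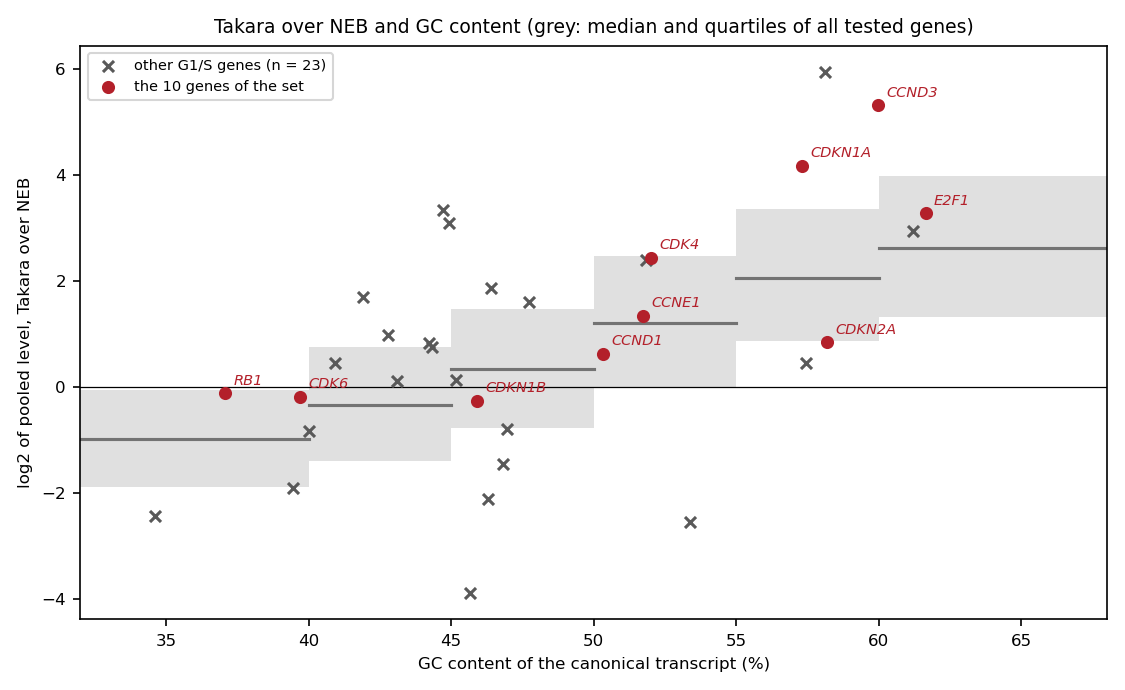
Log2 ratio of pooled levels, Takara over NEB (y axis), against GC content of the canonical transcript in percent (x axis), for the 10 genes (red points), 23 other G1/S genes (crosses) and the median and quartiles of all tested genes by GC content (grey lines and bands). CCND3 (5.31) and CDKN1A (4.18) lie above the upper quartile of genes of like GC content, and CDKN2A (0.84) lies just under the lower quartile.

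E2F1 tended to be higher in cells with higher levels of S phase genes. A list of 22 S phase genes (MCM2 to MCM7, PCNA, RRM2, TYMS and others) was summed in CPM in each cell, and ranged from 723 to 7143 CPM in G&T and from 419 to 10571 in Takara. The Spearman correlation of E2F1 with that sum was 0.72 over the 11 G&T cells and 0.76 over the 11 Takara cells (Pearson on log2 values 0.75 and 0.65), and 0.59 and 0.75 without the 2 cells farthest from the median sum. With a list of 20 mitosis genes it was 0.22 and -0.20. Without the 2 cells farthest from the median mitosis sum it was 0.55 and -0.02, so in G&T both lists then had similar values. These are descriptions of cells that share 1 library preparation and a total of reads, with many cells at 0.

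Of the 7 cells with a CCNE1 read, 6 also had E2F1 reads, and 9 of the 15 cells with E2F1 reads had no CCNE1 read. E2F1 was read in 8 of the 11 G&T and 7 of the 11 Takara cells, and a link between the genes was not tested. G&T cells C1, D1 and G1, which held all CCNE1 reads of that protocol, had 158, 31 and 23 E2F1 reads and ranked 4, 1 and 2 among the 11 cells by the S phase list. Takara cells A1, B1 and E1, with 6, 7 and 4 CCNE1 reads, ranked 1, 2 and 3 and had 5, 65 and 3 E2F1 reads. The fourth Takara cell with CCNE1, B2, had 1 read, no E2F1 read and rank 9. Cells without an E2F1 read included the lowest S phase cells of both protocols, H1 and D2 in G&T and E2 and G1 in Takara.

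**Figure D5:**
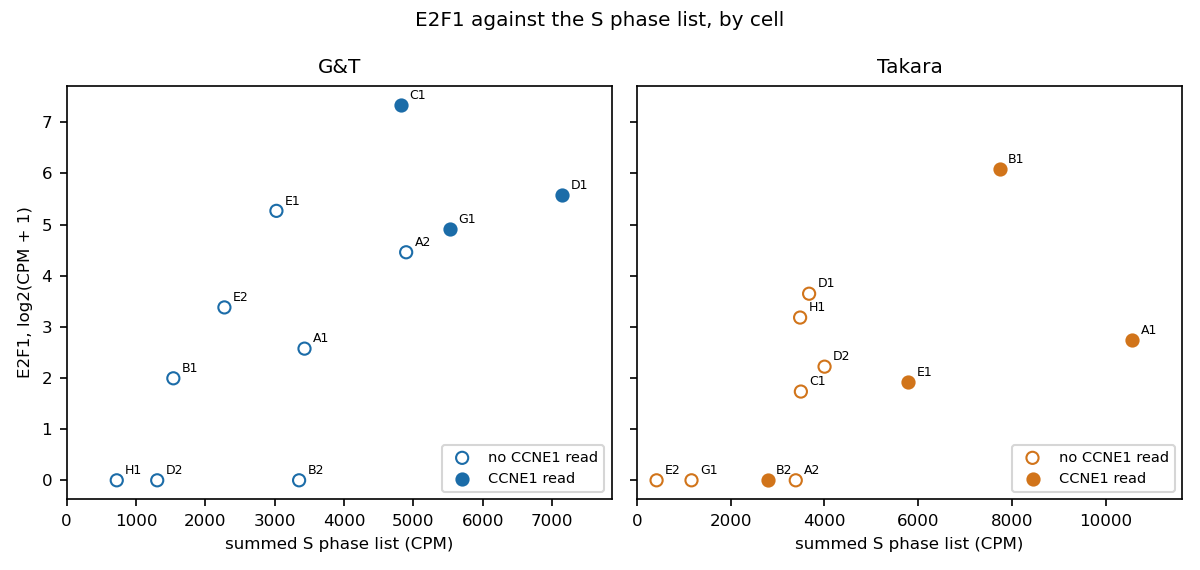
E2F1 as log2(CPM + 1) (y axis) against the summed CPM of 22 S phase genes (x axis) in the 11 kept cells of G&T (left) and Takara (right), labelled by well, with filled points for cells with a CCNE1 read. The 6 cells with reads on both E2F1 and CCNE1 lie toward the high end of the S phase list, at 4819 CPM or more in G&T and 5788 CPM or more in Takara.

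E2F1 was not alone in this. Of the 8 members with reads in at least 6 G&T cells, 5 correlated with the S phase list at 0.6 or more. In Takara it was 2 of 8, E2F1 and, at the cutoff itself, CCND3. The share of all genes at 0.6 or more was not computed, so these counts do not set the members apart. CDK4 had 0.75 in G&T, 0.35 in Takara (-0.07 without the 2 farthest cells) and 0.55 in NEB. CCND3 had a correlation with the S phase list of 0.66 in G&T and 0.60 in Takara (0.77 and 0.52 without the 2 farthest cells). CDKN2A had 0.63 and 0.22, and 0.59 and 0.67 with the mitosis list. CDKN1B correlated with both lists in G&T, 0.83 for S phase and 0.78 for mitosis, and in Takara had 0.29 and -0.29. The 2 list sums themselves had a correlation of 0.56 across the G&T cells and 0.24 across the Takara cells, so their values are not separate results. In G&T the CDKN1B level also moved with the number of reads on genes of the cell (-0.68), and the part of depth in it was not tested. CCND1 had a correlation of -0.79 with the mitosis list in G&T and -0.35 in Takara, and in G&T it moved with depth (0.85). Depth also had correlations of -0.78 with CDK4 in Takara and -0.52 with CDKN2A in G&T. RB1 stayed between -0.10 and 0.42 for both lists in G&T and Takara.

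A wider list of 25 other G1/S genes, 23 of which passed the filter, gave the surroundings of these members. Between G&T and Takara 3 were at least 2-fold higher and 3 lower in G&T, against 20.9% and 17.4% of all tested genes. Between G&T and NEB 8 were higher and 3 lower in G&T, against 44.4% and 20.2%. Between Takara and NEB 8 were higher and 6 lower in Takara, against 41.8% and 23.1%. The medians of 0.49, 0.55 and 0.45 lay beside 0.03, 0.67 and 0.51 over all tested genes. The gap in mean CPM exceeded the larger SD over cells for 1, 4 and 5 of the 23. Over all tested genes the shares were 20.4%, 21.6% and 30.0%. The share of all tested genes that lie at least 2-fold apart from both other protocols was not computed. The list held genes that were at least 2-fold higher in NEB than in both other protocols. Among these were CCNE2, the other cyclin E gene, with 103 CPM in NEB against 25.8 and 18.1 in G&T and Takara, and FBXW7, which marks cyclin E for destruction, with 118 CPM, 9.83-fold above G&T (8.09 to 12.1) and 16.9-fold above Takara (13.4 to 21.4). CCNE2 was read in 5 NEB cells, fewer than the 8 in G&T and 8 in Takara. Its gaps in mean CPM to NEB stayed within the larger SD over cells, 226 CPM. FBXW7 was read in 11 G&T, 7 Takara and 10 NEB cells, and its gaps to NEB exceeded the larger SD. CCNE1 was read in no NEB cell.

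NEB was at least 2-fold below both other protocols for 6 genes of the list, again without a share over all tested genes to set beside it. Among the 6, the gap in mean CPM to NEB exceeded the larger SD for TFDP1 in both comparisons and for E2F4 against Takara only. The other gaps stayed within it. CDC25A, a phosphatase that activates CDK2, E2F4, a repressor E2F, and E2F8, an atypical E2F, had no NEB read. E2F4 reached 60.8 CPM in Takara and 10.0 in G&T. The INK4 inhibitor CDKN2C had 23.8 (G&T), 36.2 (Takara) and 3.39 CPM (NEB), its relative CDKN2D 11.9, 25.01 and 2.38, and TFDP1, the partner of E2F proteins, 69.7, 42.2 and 10.9. CDC25A and E2F7 were also at least 2-fold higher in G&T than in both others, CDKN2D and E2F4 were so in Takara, and E2F3 was at least 2-fold lower in Takara than in both.

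Per length, CKS1B (a CDK-binding subunit of the SKP2 ligase), CCNA2 (cyclin A2) and MDM2 (a ubiquitin ligase) were the highest of the list, with 162, 51.9 and 19.1 RPKM as means over the protocols. CKS1B and MDM2 had reads in all 33 cells. CCND2, the D cyclin that is not among the members, had 8 reads in 1 G&T cell and none elsewhere, and CDKN1C (p57) had no read in any kept cell.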

How the data were processed

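The authors trimmed the reads with Trim Galore in 2 rounds, used STAR on GRCh38 and deposited its raw read counts per gene, 1 table per protocol, without normalization or molecular identifiers. The annotation release and strand column are not given in the sources used here. Each table has rows for 60279 genes and 92 ERCC spike-ins, and 4 rows of unassigned reads that were left out. Cells needed at least 1000 genes, 600000 reads on genes and spike-ins, at most 30% mitochondrial and at most 25% ERCC reads. Kept cells had 624772 to 1287911 reads on genes, and 0 reads were given a limit of 3 reads.

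From the counts, CPM per cell, pooled CPM, exact Poisson and binomial 95% intervals, RPKM over the union of GENCODE exons, and log2 ratios with 1 CPM added were computed in Python 3.11.15 (numpy 2.4.6, pandas 2.3.3, scipy 1.17.1). TMM factors came from edgeR 4.0.16 in R 4.3.3. GC content was that of the Ensembl canonical transcript. Thinning and ratios were tested on simulated data. Members and lists were chosen with earlier results of these data known. All members are named, and of the 25 other genes those at least 2-fold apart from both other protocols in the same direction and the 3 highest per length, with 1 gene of that list not reported here. Alternatives covered cells kept, detection, depth, scaling, denominators, pooling, pseudocount, filter, gene length and each cell left out. For members with reads in at least 25 cells, the 2 genes with the most similar levels over cells are also named.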

Additional observations from a re-analysis of the deposited data

Results flagged for a closer look

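Reads on these genes were also present in cells that the quality thresholds removed. The removed G&T cell F1 had more than 3 reads on 8 of the 10 genes, among them 298 on CCND1, 21 on E2F1 and 8 on CCNE1. Its library of 596867 reads was just under the limit of 600000. The removed G&T cell C2, with 33.7% mitochondrial reads, had more than 3 reads on 4 genes, with 62 on RB1, 43 on CCND3, 15 on CDK4 and 4 on CCND1. The removed NEB cell B2 had more than 3 reads on 1 gene, RB1 with 15. The other 4 removed cells had at most 3 reads on any of the genes.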

How the results depend on the processing

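The number of genes past 2-fold was 5 between G&T and Takara, 8 between G&T and NEB and 5 between Takara and NEB, and leaving out 1 cell at a time gave 3 to 5, 8 to 9 and 5 to 7. The value of 3 came without G&T cell C1. Takara over NEB gave 8 genes with the median over cells in place of pooled reads, since CCND1, RB1, CDKN1B and CDKN2A passed 2-fold and CCNE1 did not. In the same setting G&T over NEB lost CDK6 and CCNE1 and gained RB1 and CDKN2A, and G&T over Takara lost CDK6 and CCNE1 and gained CCND3. The mean number of genes per Takara cell was 6.46 with all deposited cells. No log2 ratio past 2-fold changed sign under any alternative. Over all tested genes, the log2 ratio had a median shift of -0.10, -0.21 and -0.12 with median-of-ratios scaling, in the order above. With spike-ins in the denominator the median shift in the ratios to NEB was 0.14 (G&T) and 0.15 (Takara). Leaving mitochondrial genes out gave 0.11 for G&T over NEB, and the median over cells gave -0.13, 0.46 and 0.63. Little can be said of CDK6, CCNE1 and the NEB values of CCND3, CDKN1A and CDKN1B, which rest on few reads. The same holds in Takara for CDKN1B (42 reads) and E2F1 (102 reads, 65 of them in cell B1). With at least 5 reads asked for, each was found in 36.4% of Takara cells in place of 63.6%. No paired analysis was possible because the results come from no test and a well number does not link cells of different protocols.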

Other observations

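Of the genes with reads in at least 25 of the 33 cells, 5508 in all, those whose level over cells was most like a member were found from the mean over the protocols of the Spearman correlation across 11 cells. For CCND1 these were NDUFV3 (0.70) and SCAND1 (0.68), for CDK4 ZNF84 (0.73) and MKLN1 (0.69), for RB1 CGRRF1 (0.67) and ATP8B1 (0.62), and for CDKN2A RTN3 (0.74) and PSIP1 (0.69). These are the highest of many correlations over few cells that share library and depth, and are given as a description.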
